A study of Mus musculus with 6 samples.

Results

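A set of 40 genes of glycolysis and of the response to low oxygen was followed in C0321 mouse mammary tumors of control and of SS-treated mice. They were chosen by gene symbol, as 15 enzymes of glycolysis, 5 enzymes of lactate, pyruvate dehydrogenase kinase and fructose-2,6-bisphosphate metabolism, 7 HIF subunits and oxygen sensors, and 13 genes known to be induced by hypoxia. Of these 40 genes, 38 were among the 13730 genes of the table, with 75 of its 20648 transcripts, and 36 passed the filter on low counts and were tested among 10902 genes. Car9 and Ldhb were not analysed here, and Adm and Ankrd37 were too low to be tested.

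SS is sulindac sulfide, an active metabolite of the anti-inflammatory drug sulindac and a gamma-secretase modulator, although the treatment label of the treated libraries reads Sulindac Sulfate. All tumors grew from injected C0321 cells, a triple-negative breast cancer line made from a mouse lacking Lfng, placed with Matrigel in a mammary fat pad of female FVB mice aged 6 to 10 weeks. After a mass could be felt, mice of the SS group received it orally each day, at 60 mg/kg, over 14 days, and control mice had none, with 3 tumors sequenced per group; the control treatment is named saline in the series record and vehicle in the study's text. The cells of every tumor carried the same Lfng-/- background and came from 1 line, so that the comparison speaks for that line, and the RNA was of whole tumors, host cells included. The numbers of the libraries name separate samples of each group, and nothing else says how the tumors were drawn from mice, so p-values measure the spread between these samples.

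Glycolysis splits glucose into pyruvate, which lactate dehydrogenase turns into lactate when little of it enters mitochondria, and many tumors keep this route active even with oxygen present. The hypoxia-inducible factors pair an alpha subunit, HIF-1 alpha or HIF-2 alpha, with the shared subunit ARNT, and switch on glycolytic enzymes, angiogenic factors and collagen-modifying enzymes. In the presence of oxygen, prolyl hydroxylases of the EGLN family mark the alpha subunits, and VHL then directs them to degradation, so that most control of HIF-1 alpha takes place on the protein, which RNA does not measure.

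Counts summed to between 8468914 and 24441522 per tumor, with SS tumor 2 the shallowest and control tumor 3 the deepest, and levels are given as CPM, each count scaled to the same TMM-corrected library total. Of the receptors that define triple-negative tumors, Erbb2 lay between 17.1 and 22.4 CPM and Esr1 between 4.48 and 6.40 CPM. Pgr was at most 3.82 CPM. The study defines such tumors by pathology, which RNA does not measure. Of the mesenchymal markers, Vim lay between 5875 and 8620 CPM and Cdh2 between 2.37 and 5.21 CPM. Of the epithelial markers, Krt8 lay between 417 and 544 CPM and Krt18 between 59.5 and 98.1 CPM, whereas Cdh1 was at most 8.58 CPM and Epcam at most 2.98 CPM. Krt5 varied widely, at 73.1, 1.13 and 1.44 CPM in control tumors and 33.9, 26.7 and 0 CPM in SS tumors, where 0 allows up to 0.254 CPM. Krt14 lay between 6.44 and 45.8 CPM, and Trp63 was at most 0.474 CPM. Krt18 had every SS tumor below every control tumor, with a log2 fold change of -0.50 (adjusted p = 0.760, edgeR). Of the 8 tested mesenchymal, epithelial and keratin markers, Krt18 was the only 1 whose groups were apart. Of these 8, 5 had a log2 fold change under 0 and 3 (Epcam, Cdh1 and Cdh2) above it, with a median of -0.07. Lfng itself was at 4.65 to 6.40 CPM, and which of its exons those counts covered was not analysed here. Muscle markers ranged widely between tumors and are given with Pfkm.

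No member differed between the groups at an adjusted p under 0.05 by the quasi-likelihood test of edgeR after Benjamini-Hochberg adjustment, nor did any other gene tested (0 of 10902, or 0%). With DESeq2, 36 genes passed adjustment, of which 0 were members. At an unadjusted p under 0.05, 7 members were lower in SS tumors and 1 was higher, where 3.16% of all genes tested were lower and 3.19% higher. The lower members were Pfkl, Eno2, Gpi1, Tpi1, Hk2, Hif1a and Egln3, and the higher member was Pfkfb4. Levels in the 3 SS tumors lay wholly below the 3 control tumors for Pfkl, Tpi1, Ldha, Pdk1, Hif1a and P4ha1, and wholly above them for Pfkfb4 and Vhl, against 6.40% and 6.51% of all genes. These 8 members were 22.2% of those tested, where 12.9% of all genes had groups apart. With 5 tumors such gaps are more frequent in all genes. The members apart were 14 (38.9%) without control tumor 1, control tumor 2 or SS tumor 3, where 25.4%, 21.2% and 23.8% of all genes were, and 13 (36.1%) without SS tumor 2, where 23.0% were. They were 12 (33.3%) without SS tumor 1 and 8 (22.2%) without control tumor 3, where 22.6% and 21.1% of all genes were. In all, 31 of 36 tested members had a log2 fold change under 0 (SS minus control), where 50.2% of all genes did, and their median log2 fold change was -0.16, against -0.0013 over all genes. Without control tumor 3 that median was -0.07.

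**Figure D1:**
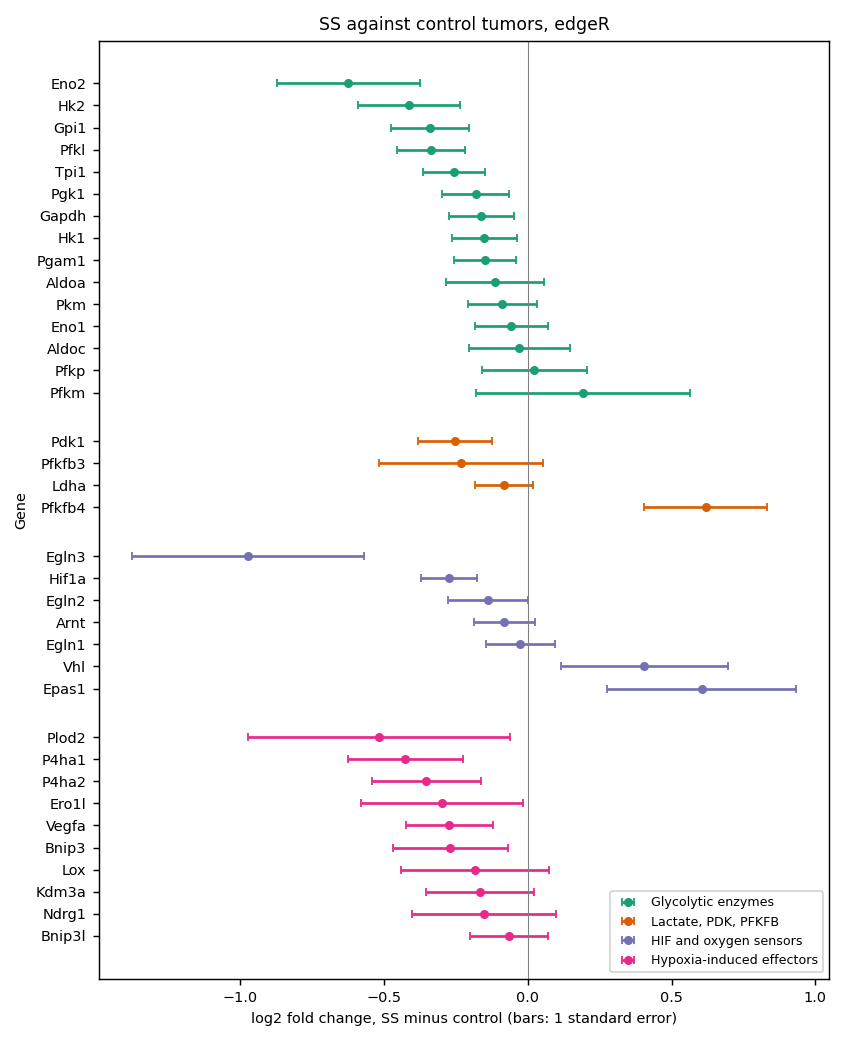
Log2 fold change of each tested member, SS minus control, with 1 standard error from edgeR and 3 tumors per group. All 10 tested hypoxia-induced effectors lie left of 0, while Pfkfb4, Epas1 and Vhl lie farthest to the right.

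Control tumor 3 had the highest level of 23 of the 36 members (63.9%), where it was highest for 18.8% of all genes tested, and SS tumor 3 was highest for 0 members, where it was for 15.4% of all genes. By role, control tumor 3 was highest for 10 of 15 glycolytic enzymes and 7 of 10 hypoxia-induced effectors. Without control tumor 3, 25 of 36 members had a log2 fold change under 0 and 1 member, Hif1a, was at an unadjusted p under 0.05, that is 2.78% of members where 4.58% of all genes were. Without SS tumor 1, 2 members (Hk2 and Pfkm, 5.56%) were at that p, where 4.93% of all genes were, and without SS tumor 2, 4 members were (Gpi1, Hif1a, Lox and Pfkfb4, 11.1%), where 5.58% of all genes were. The members at that p were 8 (22.2%) without control tumor 1, 6 (16.7%) without control tumor 2 and 6 (16.7%) without SS tumor 3, where 7.81%, 4.97% and 5.90% of all genes were. Of the 6 fits that leave out 1 tumor, Pfkl, Pfkfb4, Hif1a and Egln3 were at an unadjusted p under 0.05 in 3, Hk2, Gpi1 and Tpi1 in 2 and Eno2 in 1.

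**Figure D2:**
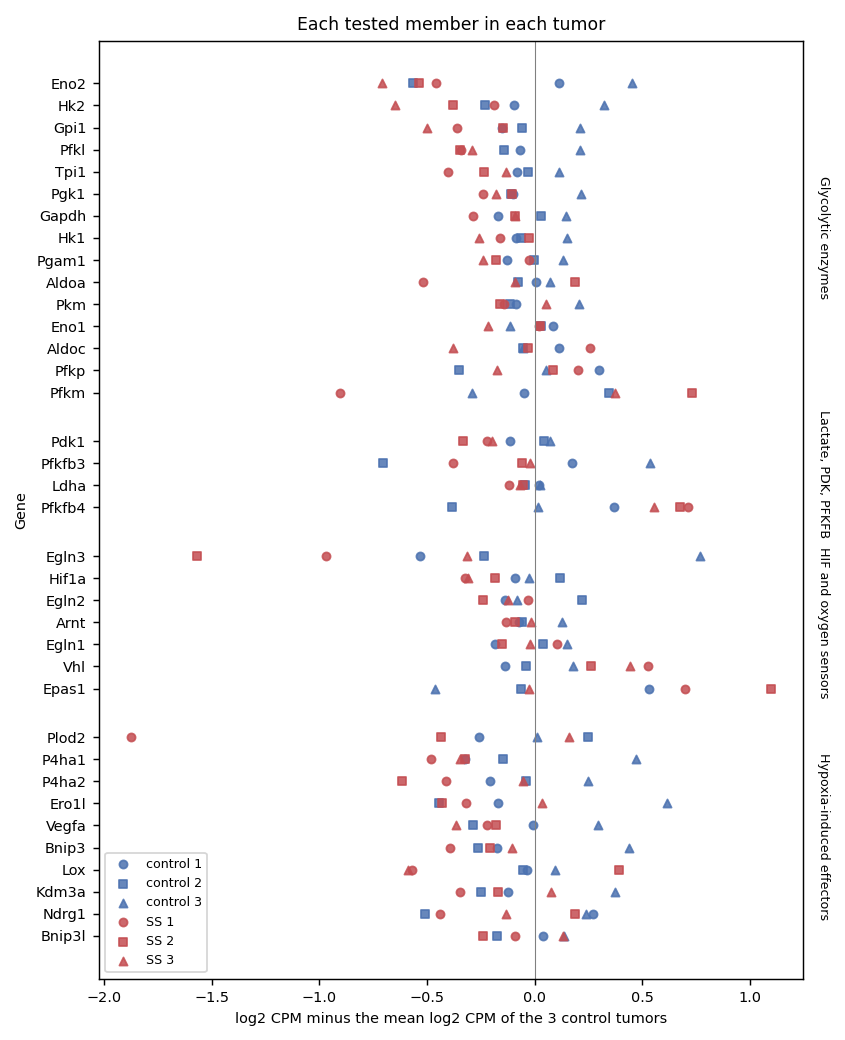
Log2 CPM of each tested member in each of the 6 tumors, minus the mean log2 CPM of the 3 control tumors, which is 0 on the axis. Control tumor 3, the blue triangle, is the rightmost point for 23 of 36 members, and the red points of Pfkfb4 and Vhl all lie to the right of the blue ones.

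Among the 15 glycolytic enzymes, 13 had a log2 fold change under 0 and 2 above it, with a median of -0.15, or -0.08 without control tumor 3, and 5 were lower at an unadjusted p under 0.05, where 3.16% of all genes were. Without control tumor 3, 0 of the 15 were at that p. Together they took between 0.543% and 0.711% of all counts, lowest in SS tumor 1 and highest in control tumor 3. Pfkl, the liver-type subunit of phosphofructokinase, which commits glucose to glycolysis (chr10:77986949-78009797), was at 124, 118 and 151 CPM in control tumors 1 to 3 and at 103, 102 and 106 CPM in SS tumors 1 to 3. All SS tumors lay below all control tumors, and they lay close together (104 ± 2.16 CPM against 131 ± 17.5 CPM, SD, n = 3 each). The log2 fold change was -0.34 ± 0.12 (SE, adjusted p = 0.771, edgeR), and -0.22 without control tumor 3.

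Tpi1, which interconverts both triose phosphates (chr6:124810592-124814297), was at 184, 191 and 211 CPM in control tumors and 147, 166 and 178 CPM in SS tumors. These groups were also apart, by the gap between SS tumor 3 and control tumor 1, and the log2 fold change was -0.26 ± 0.11 (SE, adjusted p = 0.771, edgeR). Gpi1, which turns glucose-6-phosphate into fructose-6-phosphate (chr7:34201327-34230337), was at 185, 197 and 238 CPM in control tumors and 160.4, 186 and 145 CPM in SS tumors, so that SS tumor 2 reached the level of control tumor 1. Its log2 fold change was -0.34 ± 0.14 (SE, adjusted p = 0.771, edgeR), and -0.22 without control tumor 3, where it was no longer at an unadjusted p under 0.05.

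Eno2, the neuronal-type enolase that several cancers also express (chr6:124760053-124769674), was at 40.8, 25.5 and 51.7 CPM in control tumors and 27.5, 26.0 and 23.1 CPM in SS tumors. Control tumor 2 sat among the SS tumors, and the log2 fold change of -0.62 ± 0.25 (SE, adjusted p = 0.771, edgeR) was -0.37 without control tumor 3. Hk2, the inducible hexokinase that traps glucose in the cell (chr6:82725027-82774455), was at 115, 105 and 154 CPM in control tumors and 108, 94.6 and 78.5 CPM in SS tumors. SS tumor 1 lay above control tumor 2, the unadjusted p lay just under 0.05, and the log2 fold change was -0.41 ± 0.18 (SE, adjusted p = 0.771, edgeR), or -0.23 without control tumor 3. The 250 bases before the start of Hk2 hold ACGTG, a form of the core of the hypoxia response element, at 2 places. The other form, GCGTG, was not searched for. The stretch is shown here from RefSeq on GRCm38 because Hk2 had the lowest p among glycolytic enzymes and hypoxia-induced effectors with ACGTG. Capitals mark ACGTG or its reverse complement.
Hk2 promoter, chr6:82774455-82774704, minus strand: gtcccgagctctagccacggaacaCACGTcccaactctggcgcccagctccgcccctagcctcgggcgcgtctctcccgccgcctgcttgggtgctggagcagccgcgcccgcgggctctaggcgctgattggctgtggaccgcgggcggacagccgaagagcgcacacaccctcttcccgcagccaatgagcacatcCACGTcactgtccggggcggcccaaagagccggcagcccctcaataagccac

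The constitutive hexokinase Hk1 was at 109, 110.1 and 128 CPM in control tumors and 103, 113 and 96.3 CPM in SS tumors, with a log2 fold change of -0.15. The log2 ratio of Hk2 to Hk1 within a tumor averaged 0.096 ± 0.17 in control and -0.16 ± 0.20 in SS tumors (SD, n = 3 each), an exact permutation p of 0.2, and the difference of -0.26 was -0.17 without control tumor 3. Gapdh, Pgk1, Pgam1, Aldoa, Aldoc, Pkm and Eno1, which carry the remaining steps from fructose-1,6-bisphosphate to pyruvate, had log2 fold changes between -0.18 for Pgk1 and -0.03 for Aldoc, each with overlapping groups. Gapdh, often used to scale other assays, was at 466, 535 and 580.3 CPM in control tumors and 429.7, 492 and 492 CPM in SS tumors. Pgk1, the first ATP-forming step, was at 465, 462 and 579 CPM against 423, 465 and 441 CPM. In both genes control tumor 3 stood highest. The promoter of Pgk1 is shown as that of the glycolytic enzyme with ACGTG and the next lowest p, again from RefSeq on GRCm38. Capitals again mark ACGTG or its reverse complement.
Pgk1 promoter, chrX:106186850-106187099, plus strand: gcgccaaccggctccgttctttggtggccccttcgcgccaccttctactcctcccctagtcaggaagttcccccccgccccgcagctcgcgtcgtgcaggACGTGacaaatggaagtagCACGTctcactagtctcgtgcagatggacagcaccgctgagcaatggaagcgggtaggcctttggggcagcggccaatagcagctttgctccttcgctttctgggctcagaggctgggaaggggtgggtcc

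Eno1, the common enolase, is read here with reserve. Its own row was at 42.9, 41.3 and 37.4 CPM in control and 41.0, 41.1 and 34.8 CPM in SS tumors, whereas its near-identical copy Eno1b, on another chromosome, held most of the reads, so that Eno1 made up between 2.60% and 3.52% of both. How reads were shared between such copies is not given in the sources used here. Summed, both were at 1276, 1356 and 1439 CPM in control tumors and 1230.0, 1167 and 1287 CPM in SS tumors, with SS tumor 3 above control tumor 1 and a log2 fold change of -0.14 (SE 0.09, adjusted p = 0.853, edgeR).

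Pkm, which makes pyruvate and ATP in the last step of glycolysis, was the most abundant member on the scale of CPM per kilobase, at 1176 ± 154 in control and 1109 ± 94.2 in SS tumors (SD, n = 3 each). Its gene (chr9:59656368-59679376) is spliced to carry either of a pair of exons of equal length, giving the muscle form PKM1 or PKM2, the form usual in proliferating cells and tumors. NM_011099, which carries the downstream exon of PKM2, held 90.9%, 89.6% and 87.6% of Pkm counts in control tumors and 91.5%, 85.3% and 87.5% in SS tumors, and the remaining 8.54% to 14.7% belonged to NM_001253883, which carries the upstream exon of PKM1. The shares did not separate the groups (exact permutation p = 0.6), and the PKM1 share was lowest in SS tumor 1 and highest in SS tumor 2. The exons are 167 bases long, at chr9:59675029-59675195 and chr9:59675568-59675734, and are 61.7% identical, with 64 differing bases. They are shown from the GENCODE transcripts on GRCm38, plus strand, since these are the bases that tell the forms apart; capitals mark the bases that differ.
PKM1 exon: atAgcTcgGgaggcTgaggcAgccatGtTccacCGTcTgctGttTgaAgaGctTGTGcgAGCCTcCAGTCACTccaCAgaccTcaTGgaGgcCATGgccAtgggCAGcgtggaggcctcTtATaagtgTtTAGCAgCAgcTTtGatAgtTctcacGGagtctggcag
PKM2 exon: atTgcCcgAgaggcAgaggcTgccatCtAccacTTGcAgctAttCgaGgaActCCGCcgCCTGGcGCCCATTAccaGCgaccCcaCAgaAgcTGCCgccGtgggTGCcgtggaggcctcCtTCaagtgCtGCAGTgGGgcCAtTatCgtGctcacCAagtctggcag

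Pfkm, the muscle-type phosphofructokinase subunit (chr15:98092589-98132448), was lowest and highest in the same tumors as the sum of the skeletal muscle markers. The 10 skeletal muscle markers summed to 5767, 11418 and 1143 CPM in control tumors and 346, 23850.5 and 12679 CPM in SS tumors. Pfkm was at 122, 160.1 and 103 CPM in control and 67.6, 209.7 and 163 CPM in SS tumors, lowest in SS tumor 1 and highest in SS tumor 2 like the sum. Singly, all 10 markers were highest in SS tumor 2, and 8 were lowest in SS tumor 1 and 2 (Myh4 and Pvalb) in control tumor 3. Its transcript NM_021514 spread more widely, at 96.7, 69.7 and 33.5 CPM in control and 9.92, 131 and 91.3 CPM in SS tumors, whereas NM_001163487 was lowest in control tumor 1, at 20.1 CPM, and highest in control tumor 2, at 82.6 CPM. The log2 fold change of Pfkm was 0.19 ± 0.37 (SE). All 9 tested muscle markers had a log2 fold change above 0, none at an unadjusted p under 0.05, and of the 10 only Mb, with no count in SS tumor 1, was at 0 in any tumor. Their part in the values of Pfkm and Aldoa, which muscle also makes in quantity, was not tested.

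Aldoa was at 922, 872 and 965 CPM in control tumors and 641, 1046 and 864 CPM in SS tumors, again with SS tumor 1 lowest and SS tumor 2 highest. Pfkp, the platelet-type subunit, was at 63.6, 40.5 and 53.5 CPM against 59.4, 54.8 and 45.8 CPM, with a log2 fold change of 0.02. Neither Pfkm nor Pfkp had groups that were apart. The log2 ratio to Pfkl was higher in SS tumors by 0.36 for Pfkp (exact permutation p = 0.2) and by 0.39 for Pfkm (exact permutation p = 0.5), with overlapping groups in both. The difference for Pfkm was 0.05 without SS tumor 2, 0.14 without control tumor 3, 0.26 without SS tumor 3, 0.64 without control tumor 2 and 0.87 without SS tumor 1, and that for Pfkp was 0.55 without control tumor 1.

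**Figure D3:**
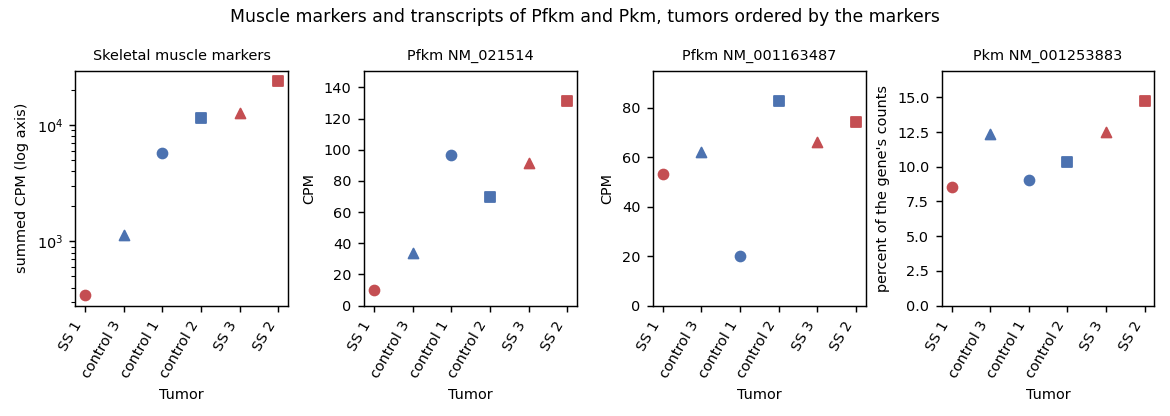
Summed CPM of 10 skeletal muscle markers (log axis), CPM of 2 Pfkm transcripts and the percent of Pkm counts held by the PKM1 transcript, with tumors ordered by the marker sum, control in blue and SS in red. NM_021514 of Pfkm is lowest in SS tumor 1 and highest in SS tumor 2, the same ends as the marker sum.

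Fructose-2,6-bisphosphate, the strongest activator of phosphofructokinase, is made by the PFKFB enzymes, and Pfkfb4 was the member with the lowest p. Pfkfb4 (chr9:108991902-109032226) was at 16.7, 9.93 and 13.1 CPM in control tumors and 21.2, 20.6 and 19.0 CPM in SS tumors. All SS tumors lay above all control tumors, 20.3 ± 1.13 CPM against 13.2 ± 3.38 CPM (SD, n = 3 each), which was a fitted 1.54-fold. The log2 fold change was 0.62 ± 0.21 (SE, adjusted p = 0.771, edgeR) and lay between 0.45 and 0.82 when each tumor in turn was left out.

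Pfkfb3, its relative with the strongest kinase activity, was at 72.2, 39.3 and 93.0 CPM in control and 49.4, 61.6 and 63.3 CPM in SS tumors, with the SS tumors inside the control range. The log2 ratio of Pfkfb4 to Pfkfb3 averaged -2.31 ± 0.45 in control and -1.51 ± 0.26 in SS tumors (SD, n = 3 each) and was the only 1 of 10 ratios between related members whose groups were apart. Its exact permutation p was 0.1, the lowest that 3 against 3 tumors allow, or 0.4 adjusted over the 10 ratios. Leaving out 1 tumor at a time gave between 1 and 4 such ratios, with 4 without control tumor 1, SS tumor 1 or SS tumor 3, 3 without control tumor 2 and 2 without SS tumor 2.

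Ldha, the lactate dehydrogenase subunit of glycolytic tissues (chr7:46845804-46855628), was at 54.5, 52.1 and 54.7 CPM in control tumors and 49.4, 51.7 and 51.2 CPM in SS tumors. The groups were apart by less than 1 CPM, with a log2 fold change of -0.08 ± 0.10 (SE, adjusted p = 0.921, edgeR). Pdk1, the kinase that keeps pyruvate out of the citric acid cycle and a known HIF target (chr2:71873224-71903859), was at 30.5, 34.0 and 34.8 CPM in control and 28.3, 26.2 and 28.8 CPM in SS tumors. Its groups were apart too, with a log2 fold change of -0.25 ± 0.13 (SE, adjusted p = 0.792, edgeR). The median log2 fold change of the 4 measured enzymes of this kind was -0.16, but -0.0022 without control tumor 3, -0.10 without SS tumor 1 and -0.05 with the most abundant transcript of each gene.

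Hif1a, the oxygen-regulated alpha subunit of HIF-1 (chr12:73901324-73947555), was at 319, 369 and 334 CPM in control tumors and 272, 299 and 274 CPM in SS tumors. No SS tumor reached the lowest control tumor, and the log2 fold change was -0.27 ± 0.10 (SE, adjusted p = 0.771, edgeR), or 0.827-fold. Its log2 fold change was -0.29 without control tumor 3 and between -0.32 and -0.21 when any tumor was left out. Without control tumor 2, SS tumor 1 or SS tumor 3 it was not at an unadjusted p under 0.05. Its most abundant transcript alone gave -0.18, also not at that p. Of its 3 transcripts, NM_001313920 held the most counts, 67.6% to 74.3% in control and 74.2% to 77.4% in SS tumors (exact permutation p = 0.2).

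Epas1, which encodes HIF-2 alpha and is strong in endothelial cells (chr17:86753864-86833411), leaned the other way. It was at 48.4, 32.0 and 24.3 CPM in control tumors and 54.3, 71.8 and 33.0 CPM in SS tumors, with a log2 fold change of 0.60 ± 0.33 (SE, adjusted p = 0.802, edgeR). SS tumor 3 lay among the control tumors. The difference was 0.33 without SS tumor 2, 0.40 without control tumor 3 and 0.91 without control tumor 1, and was at an unadjusted p under 0.05 without control tumor 1 or SS tumor 3. The 7 endothelial markers with rows summed to 119, 98.0 and 72.5 CPM in control and 98.6, 184 and 102 CPM in SS tumors, so that control tumor 3 was lowest and SS tumor 2 highest for both. Of 6 endothelial markers tested, 5 had a log2 fold change above 0 and Vwf was at an unadjusted p under 0.05 (adjusted p = 0.771, edgeR), and their part in the level of Epas1 was not tested. In whole tumors, a change in the number of cells of a type and a change in RNA per cell cannot be told apart. The log2 ratio of Epas1 to Hif1a averaged -3.34 ± 0.55 in control and -2.48 ± 0.52 in SS tumors (SD, n = 3 each, exact permutation p = 0.2).

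Among the oxygen sensors, Egln3, a prolyl hydroxylase that HIF itself induces (chr12:54178981-54203875), had the lowest log2 fold change of the 36 tested members. It was at 47.7, 58.6 and 117 CPM in control tumors and 35.3, 23.3 and 55.4 CPM in SS tumors. Its groups overlapped, since SS tumor 3 lay above control tumor 1, and the mean was 38.0 ± 16.3 CPM in SS against 74.6 ± 37.5 CPM in control tumors (SD, n = 3 each). The log2 fold change was -0.97 ± 0.40 (SE, adjusted p = 0.771, edgeR), and it was -0.48 without control tumor 3. Egln1, the main sensor in most tissues, was at 213, 249 and 269 CPM against 261, 218 and 239 CPM, a log2 fold change of -0.03, and the log2 ratio of Egln3 to Egln1 differed by -0.93 (exact permutation p = 0.2), or -0.62 without control tumor 3.

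Egln2 and Arnt had log2 fold changes of -0.14 and -0.08, with overlapping groups. Vhl, the recognition subunit of the ligase that destroys the HIF alpha subunits (chr6:113624021-113631634), was at 3.16, 3.39 and 3.94 CPM in control and 5.01, 4.17 and 4.73 CPM in SS tumors. All SS tumors lay above all control tumors, with a log2 fold change of 0.41 ± 0.29 (SE, adjusted p = 0.860, edgeR). The gap was narrow and rested on few counts, 96 in control tumor 3 (3.94 CPM) and 35 in SS tumor 2 (4.17 CPM). The 7 genes of this group had a median log2 fold change of -0.08, with 5 under 0 and 2 above it, and the median was -0.01 without control tumor 3, -0.02 without control tumor 2 and -0.13 with the most abundant transcript of each gene.

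**Figure D4:**
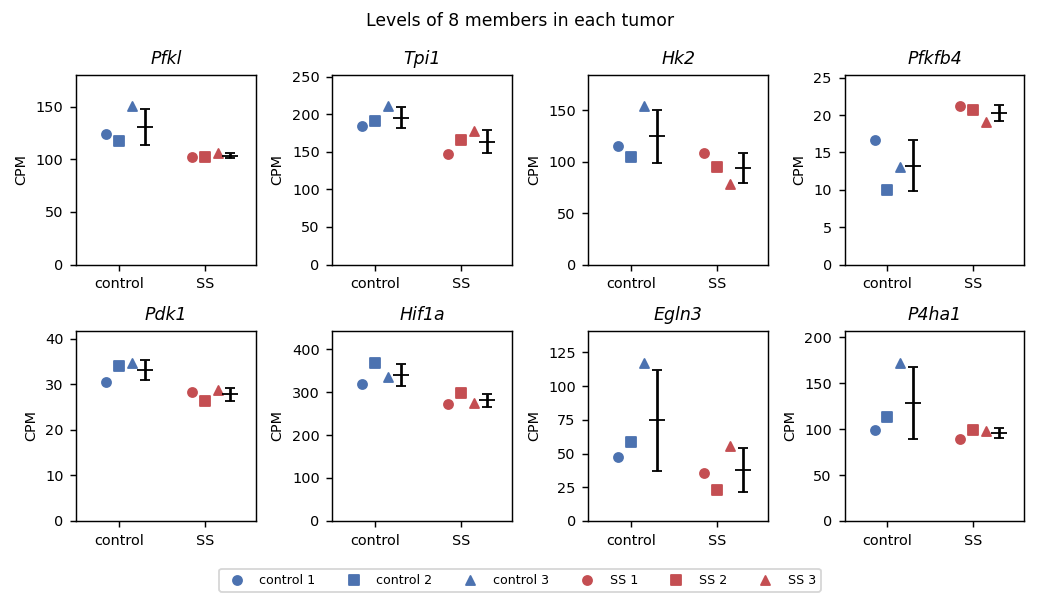
CPM of 8 members in the 6 tumors, with the mean and SD of each group (n = 3) drawn as black bars and each axis starting at 0. The groups are apart for Pfkl, Tpi1, Pfkfb4, Pdk1, Hif1a and P4ha1 and overlap for Hk2 and Egln3.

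All 10 tested hypoxia-induced effectors had a log2 fold change under 0, with a median of -0.27. However, 0 were at an unadjusted p under 0.05 with edgeR, where 6.36% of all genes were. With DESeq2 1 was, P4ha1, where 6.31% of all genes were. The median of the effectors was -0.07 without control tumor 3 and -0.16 without SS tumor 1. P4ha1, a catalytic subunit of the collagen prolyl hydroxylase needed for a stable collagen helix (chr10:59323296-59373305), was at 99.5, 113 and 173 CPM in control tumors and 89.3, 99.4 and 98.0 CPM in SS tumors. The groups were apart, but only just, with SS tumor 2 at 99.4 CPM and control tumor 1 at 99.5 CPM. The log2 fold change was -0.43 ± 0.20 (SE, adjusted p = 0.790, edgeR), but -0.15 without control tumor 3 and -0.20 with its most abundant transcript. Without control tumor 1 it was -0.58, at an unadjusted p under 0.05.

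P4ha2, another catalytic subunit of that enzyme (chr11:54100924-54131668), was at 33.4, 37.5 and 45.7 CPM in control tumors and 29.0, 25.2 and 37.1 CPM in SS tumors. SS tumor 3 lay between control tumors 1 and 2, with a log2 fold change of -0.35 ± 0.19 (SE, adjusted p = 0.798, edgeR). It was -0.22 without control tumor 3 and -0.24 without SS tumor 2, and at an unadjusted p under 0.05 without SS tumor 3, at -0.52, and with its most abundant transcript, at -0.49. Both genes hold ACGTG or its reverse complement within 250 bases before their start. Those stretches are shown from RefSeq on GRCm38, with ACGTG or its reverse complement in capitals and GCGTG not marked.
P4ha1 promoter, chr10:59323046-59323295, plus strand: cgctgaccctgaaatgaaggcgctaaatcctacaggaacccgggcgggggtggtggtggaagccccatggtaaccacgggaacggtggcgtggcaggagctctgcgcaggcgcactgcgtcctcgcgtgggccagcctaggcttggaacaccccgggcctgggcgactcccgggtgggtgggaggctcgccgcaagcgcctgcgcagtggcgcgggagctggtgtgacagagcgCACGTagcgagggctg
P4ha2 promoter, chr11:54100674-54100923, plus strand: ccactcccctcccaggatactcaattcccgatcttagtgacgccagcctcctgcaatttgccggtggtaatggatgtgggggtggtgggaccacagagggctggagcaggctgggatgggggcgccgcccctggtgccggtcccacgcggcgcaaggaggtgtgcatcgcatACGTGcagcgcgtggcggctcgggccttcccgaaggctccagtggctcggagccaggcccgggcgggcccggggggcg

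Vegfa, the growth factor that draws new vessels toward hypoxic tissue (chr17:46016993-46032378), was among the most abundant members per kilobase. It was at 683, 563 and 842 CPM in control tumors and 589.8, 607 and 533 CPM in SS tumors. Only SS tumor 3 lay below every control tumor, and the log2 fold change was -0.27 ± 0.15 (SE, adjusted p = 0.807, edgeR). It was -0.11 without control tumor 3 and -0.40 without control tumor 2, there at an unadjusted p under 0.05. Its most abundant transcript alone, NM_001110267, gave a log2 fold change of 0.11, and it held 15.7% to 18.5% of Vegfa counts in control and 17.0% to 24.9% in SS tumors. Of 10 Vegfa transcripts, NM_001287057 and NM_001317041 had identical values and each held 18.1% to 22.0% in control and 12.9% to 17.7% in SS tumors.

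Across members, 24 shares of transcripts in 10 genes were compared, and 4 (16.7%) were apart between the groups, where 775 of 6761 shares in 2917 tested genes (11.5%) were. Of the 4, 3 were in Vegfa and lower in SS tumors, and they amount to 1 measurement, since besides the identical pair NM_009505 held a nearly constant 0.986 of their share in every tumor. The other was in P4ha1. The P4ha1 transcript NM_011030 held 58.2%, 59.1% and 59.4% in control tumors and 65.7%, 60.8% and 79.1% in SS tumors. The exact permutation p of each was 0.1, the lowest possible, and the lowest value adjusted over the 24 shares was 0.6. With 1 tumor left out, between 4 (16.7%, without control tumor 1) and 8 (33.3%, without control tumor 3) of the shares were apart, where 20.4% and 20.1% of all were. They were 7 (29.2%) without SS tumor 2, against 21.4% of all, and 6 (25%) in each of the other fits, against 20.7% to 23.2% of all, each Vegfa row being counted.

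The mitophagy receptor Bnip3 was at 46.3, 43.5 and 70.8 CPM in control and 39.8, 45.2 and 48.5 CPM in SS tumors, and Ero1l, an oxidase of the endoplasmic reticulum, at 30.4, 25.2 and 52.5 CPM against 27.4, 25.4 and 35.1 CPM. In both, control tumor 3 alone stood above all SS tumors. Kdm3a, a histone demethylase induced by HIF, followed the same order among the control tumors, at 93.6, 85.6 and 132 CPM, against 80.1, 90.4 and 107 CPM in SS tumors. Bnip3l, the paralog of Bnip3, had the smallest log2 fold change of the effectors, -0.06.

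Plod2, a lysyl hydroxylase that sets collagen cross-links, was at 8.22, 11.7 and 9.93 CPM in control and 2.69, 7.27 and 11.0 CPM in SS tumors, with a log2 fold change of -0.52 and the widest standard error of the effectors, 0.46. SS tumor 1 alone was far below the others. Lox, which cross-links collagen outside the cell, was at 102, 101 and 112 CPM against 70.9, 138 and 69.8 CPM, so that SS tumors lay on both sides of the control tumors. Ndrg1, a stress-induced gene, was at 37.5, 21.8 and 36.6 CPM against 22.9, 35.3 and 28.3 CPM. Adm, the vasodilator adrenomedullin, had at most 4 counts in any tumor, with 0 in SS tumor 3, which allows up to 0.254 CPM, and Ankrd37 had at most 9 counts.

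Erythroid transcripts are given beside these genes. The 6 erythroid markers with rows summed to 3927, 1892 and 2086 CPM in control tumors and 853, 1934 and 1265 CPM in SS tumors, so that SS tumor 2 lay above control tumor 2 and the groups overlapped. All 5 tested had a log2 fold change under 0. Of these, 4 were at an unadjusted p under 0.05, where 3.16% of all genes were lower at that p. The lowest adjusted p of the 5 was 0.771 in edgeR. They were highest in control tumor 1, not in control tumor 3, and their part in the levels of the hypoxia-induced effectors was not tested. The 8 fibroblast markers, of which 0 were at 0 in any tumor, summed to 12106, 18279.6 and 14416 CPM in control tumors and 8854, 17391.5 and 14414 CPM in SS tumors, with overlapping groups. Of 6 tested, 5 had a log2 fold change under 0, with a median of -0.29 and none at an unadjusted p under 0.05, and their part in the levels of P4ha1, P4ha2, Plod2 and Lox was not tested. All 8 macrophage markers had a log2 fold change above 0, with none at an unadjusted p under 0.05.

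A promoter window of the RefSeq set for GRCm38 runs from 250 bases before to 50 after a start, and both strands were searched. The letters ACGTG or their reverse complement CACGT, called the core here, were found in 17 of the 33 members with a window (51.5%). Among all 32851 windows 19.6% held them, and among 10829 windows of tested genes 25.3% did. The median GC content was 64.3% in the members' windows, 52.7% in all windows and 61.3% in those of tested genes, and the core itself holds a CpG. By role, the core was held by 6 of 15 glycolytic enzymes and 2 of 4 lactate, pyruvate and fructose-2,6-bisphosphate enzymes. It was also held by 4 of 6 HIF subunits and oxygen sensors and 5 of 8 hypoxia-induced effectors. The windows of Gapdh and Hif1a lie 695 and 6543 bases from the outermost start of the table's transcripts, and 15 of the other 31 windows held the core. Ldha had 5 matches to ACGTG or CACGT, the most of any member, while Pfkl, Gpi1, Tpi1 and Pfkfb4 had 0. GCGTG, the other form of the core of the hypoxia response element, was not counted in these windows.

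Other genes of the same routes were compared as lists. Of 28 other genes of glycolysis and glucose transport, 27 had rows and 24 were tested, 13 with a log2 fold change under 0 and 11 above it, with a median of -0.03 and none at an unadjusted p under 0.05. Slc2a1, the glucose transporter GLUT1 and a HIF target, was at 322, 232 and 399 CPM in control tumors and 194, 245 and 277 CPM in SS tumors, overlapping, with a log2 fold change of -0.41 (adjusted p = 0.792, edgeR). Pgam2 and Eno3, the muscle forms of their enzymes, were highest in SS tumor 2, as Pfkm was. Pgam2 was at 12.3, 19.0 and 2.95 CPM in control and 0.726, 35.2 and 15.1 CPM in SS tumors.

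Of 41 other genes of the hypoxia response, 32 were tested, 23 with a log2 fold change under 0 and 9 above it, with a median of -0.20. Cited2, a HIF-induced inhibitor that competes with HIF for its coactivator, was lower at an unadjusted p under 0.05. It was at 340.3, 299 and 382 CPM in control tumors and 195, 214 and 250.5 CPM in SS tumors, with the groups apart and a log2 fold change of -0.63 (SE 0.13, adjusted p = 0.679, edgeR). Bhlhe40, a repressor induced by hypoxia, was at 258, 215 and 299 CPM against 194, 177 and 170.3 CPM, with a log2 fold change of -0.51 (adjusted p = 0.760, edgeR).

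Kdm4b, another hypoxia-induced histone demethylase, was at 63.2, 50.8 and 57.8 CPM in control and 45.4, 42.1 and 39.7 CPM in SS tumors, with a log2 fold change of -0.43 (adjusted p = 0.771, edgeR). In these 3 genes every SS tumor lay below every control tumor, and so it was in P4ha3 and Ccng2. That made 5 of the 32 tested genes of this list, where 6.40% of all genes were apart and lower. The 3 were the only genes of the list lower at an unadjusted p under 0.05, where 3.16% of all genes were. Fits that leave out a tumor were not followed for this list. Tfrc, the transferrin receptor, was higher at an unadjusted p under 0.05, at 17.9, 18.5 and 16.5 CPM against 28.8, 18.4 and 24.9 CPM, with SS tumor 2 inside the control range and a log2 fold change of 0.45 (adjusted p = 0.771, edgeR).

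On the scale of CPM per kilobase, which allows genes to be ordered, Pkm stood far above the other members and was followed by Aldoa at 609.6 ± 30.8, Vegfa at 495 ± 117 and Gapdh at 414 ± 45.4 in control tumors (SD, n = 3 each). That order uses the row of Eno1 alone; the sum of Eno1 and Eno1b, at the length of Eno1, was at 669.5 ± 40.1 in control and 606 ± 29.5 in SS tumors, above Aldoa in 5 of 6 tumors and below it in SS tumor 2, with ranges that overlapped those of Aldoa in both groups. Aldoa and Vegfa overlapped within the spread of the tumors, as did Vegfa and Gapdh. Pgam1, Pgk1 and Tpi1 came next, at 315 ± 28.0, 275 ± 36.7 and 122 ± 8.60, where Pgam1 and Pgk1 overlapped and Tpi1 lay below both. Hif1a, at 76.1 ± 5.86, lay above its partner Arnt, at 28.8 ± 2.29, and above Epas1, at 6.33 ± 2.23. Ldha was at 34.0 ± 0.85 on that scale, below Pkm, the enzyme that supplies it, and whether reads of Ldha were lost to other rows was not tested. Plod2 and Vhl closed the order among the tested members, at 2.72 ± 0.47 and 1.25 ± 0.14.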

How the data were processed

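Stranded polyadenylated RNA of 3 control and 3 SS tumors was sequenced in pairs. The deposited table held estimated counts for each RefSeq transcript, to which the authors had applied no normalization. The submitters' processing notes name CASAVA 1.8.1, Bowtie2 2.2.5, STAR 2.5.3a and the build mm10 without roles, and the counting tool is not given in the sources used here. The paper's methods compare quantile-normalized values with a t statistic.

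Counts were summed per gene symbol, 21 symbols turned into dates being restored, and rounded. In R 4.3.3, edgeR 4.0.16 gave TMM factors between 0.98 and 1.03, its low-count filter kept 10902 genes, and the quasi-likelihood test without covariates was adjusted by Benjamini-Hochberg over them. CPM is TMM-scaled, and standard errors are the log2 fold change over the square root of F. CPM per kilobase used the lengths of GENCODE transcripts on GRCm38 matched by RefSeq accession, found for 71 of 75 member transcripts and otherwise the mean of the gene. Ratios and transcript shares (transcripts with at least 10% of a gene's counts) had exact two-sided permutation tests, where 3 against 3 tumors cannot give a p below 0.1. Totals of 8468914 to 24441522 counts make 3 counts, the floor for a gene at 0, between 0.123 and 0.358 TMM-scaled CPM, which covers counting error only. The test was checked on simulated data.

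Members given in full were the 3 with the lowest p of each role and all at an unadjusted p under 0.05 or with groups apart. Promoters were shown for up to 4 effectors or glycolytic enzymes of lowest p that held ACGTG or its reverse complement. Pathway genes outside the members were named at an unadjusted p under 0.05. Slc2a1, Pgam2 and the members described beyond these were chosen after their values were seen. The members and lists were chosen with earlier results of these data known. Alternatives were RLE, upper-quartile and quantile scaling (with limma 3.58.1), DESeq2 1.42.0, other low-count filters, the most abundant transcript per gene, a replicate block and leaving out each tumor.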

Additional observations from a re-analysis of the deposited data

How the results depend on the processing

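With DESeq2, 36 genes passed adjustment, of which 0 were members, and in every other fit 0 genes did. The 8 members at an unadjusted p under 0.05 became 1 (2.78%, against 6.13% of all genes) with quantile normalization and limma and 5 (13.9%, against 5.74%) with the most abundant transcript of each gene, and 1 to 8 when a tumor was left out, lowest without control tumor 3. The 8 members whose groups were apart became 8 to 14 with a tumor left out, the number of tumors being smaller, the 1 ratio became 1 to 4, and the 4 transcript shares 4 to 8. Members with a log2 fold change under 0 numbered between 25 and 32 in all fits. The log2 fold change of Vegfa turned to 0.11 with its most abundant transcript. The log2 difference of the Aldoc to Aldoa ratio lay between -0.25 without SS tumor 1 and 0.28 without SS tumor 3, and that of P4ha2 to P4ha1, 0.02 with all tumors, lay between -0.11 without SS tumor 3 and 0.18 without SS tumor 2, and at -0.087 without control tumor 3; the cause was not tested. Scalings moved the median of all genes by less than 0.01. After each gene's group mean was subtracted, log2 CPM of tumors with the same number correlated by 0.116, 0.021 and 0.077. The numbers were not taken as pairs, and tumors with different numbers were not correlated in this way. With a replicate block, 7 members (19.4%, against 5.90% of all genes) were at an unadjusted p under 0.05, with Eno2, Gpi1 and Hk2 no longer there and Epas1 and P4ha2 there in addition, 8 (22.2%, against 12.9%) had groups apart and 31 had a log2 fold change under 0. Summing Eno1 with Eno1b, and following the count of members under 0, were chosen after seeing the data, and the sum left the other members' counts as they were. Adm and Ankrd37 were too low to be tested, with at most 4 and 9 counts in any tumor; the part of depth in this was not tested.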
